A study of Quercus robur with 6 samples.

Results

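The microRNA miR172 was followed through degradome sequencing of pedunculate oak (Quercus robur) roots. All calls made under the name qrb-miR172 were taken, which gave 5 cleavage sites on 5 transcripts and 12 calls, out of 89 sites and 231 calls for 27 miRNA names. The libraries came from wild-type seedlings. Drought was represented by 3 libraries, from plants held for 4 weeks at a soil moisture of 25% of the control level after 8 weeks of acclimatisation, and the control by 3 libraries from plants with full watering. Tips of the taproot and of lateral roots were pooled within each library, so root types could not be separated. The labels call the replicates biological, and they name transplanted container seedlings for the drought treatment but give no cultivation method for a single library.

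Degradome sequencing captures the uncapped 5′ ends of RNA fragments. When a miRNA guides the slicing of a messenger RNA, the downstream fragment begins at a fixed base, the slice position, opposite base 10 of the miRNA. miR172 is an old plant miRNA family known for guiding the repression of transcription factors of the APETALA2 (AP2) type, and in Arabidopsis it acts downstream of miR156 in the switch from juvenile to adult growth. The deposited tables give transcript identifiers of the PM1N gene set without gene names, and the sources used here pair none of the 5 transcripts with a name, so none is called an AP2 gene here.

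The sequences of miR172 and its sites are shown because 3 of the 5 transcripts carry nearly the same site. In the miRNA the seed, bases 2 to 8, is in capitals. In the sites, read 5′ to 3′ on the transcript, the capitals mark the bases on either side of the cut, of which the second is the slice position.
qrb-miR172: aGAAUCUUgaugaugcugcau
Qrob_T0162660.2, positions 1912 to 1932: cugcagcaucAUcaggauucu
Qrob_T0402270.2, positions 749 to 769: cugcagcaucAUcaggauucu
Qrob_T0749650.2, positions 1310 to 1330: uugcagcaucAUcaggauucu
Qrob_T0421940.2, positions 1500 to 1522: augcaccgcauuUUcaagguucu
Qrob_T0466780.2, positions 988 to 1008: uaucagcaucAUuaugauuca

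The sites on Qrob_T0162660.2 and Qrob_T0402270.2 were identical over all 21 bases. The site on Qrob_T0749650.2 differed from them by the single substitution C1U, counted from the 5′ end of the site with the base of Qrob_T0162660.2 first. That base lies opposite base 21 of the miRNA, which was unpaired in all 3 duplexes, so the change did not alter the pairing. Each of these duplexes had 19 Watson-Crick pairs, a G:U pair at miRNA position 7 and a mismatch at position 21. A target sequence shared with another transcript for the same miRNA was found for 22 of all 89 sites (24.7%). The tables hold no sequence beyond the sites, so whether reads from these transcripts could have been placed on more than 1 of them cannot be told.

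The other 2 sites paired less well. On Qrob_T0421940.2 the miRNA met a mismatch at position 11, directly beside the cut, with G:U pairs at positions 5 and 12 and 2 unpaired bases of the transcript after position 16. On Qrob_T0466780.2 there were 5 mismatches, at positions 1, 7, 19, 20 and 21, and a G:U pair at position 9. At all 5 sites the slice position stood opposite miRNA base 10.

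The alignment scores separated these groups. The Allen score is a penalty for mismatches, with 0 for a perfect match, and the MFE ratio divides the predicted free energy of the duplex by that of a perfect match, with 1 as the best value. The 3 nearly identical sites had the same values, an Allen score of 2 with an MFE ratio of 0.997, from a duplex energy of -34.2 kcal/mol against -34.3 kcal/mol for a perfect duplex. Only 5 of the 89 sites had a higher MFE ratio, and 14 had a lower Allen score. Qrob_T0421940.2 scored 6 and 0.688 (-23.6 kcal/mol), and Qrob_T0466780.2 scored 7 and 0.659 (-22.6 kcal/mol), against medians of 4 and 0.829 over all sites. The MFE ratio of Qrob_T0466780.2 was below that of 87 other sites.

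**Figure D1:**
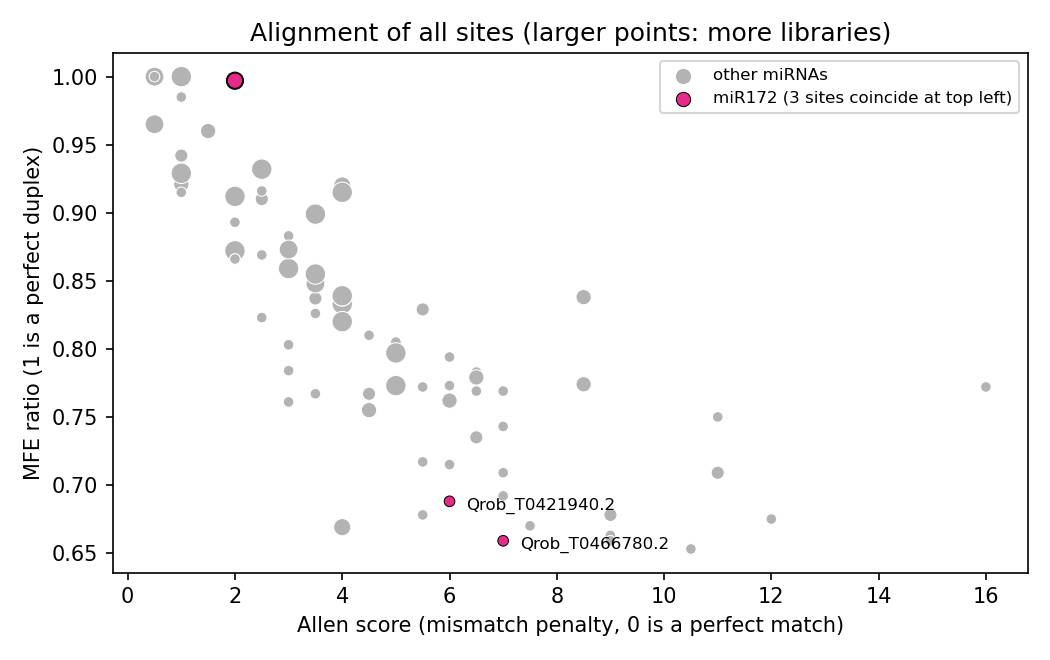
Allen score (horizontal axis, mismatch penalty) against MFE ratio (vertical axis, 1 for a perfect duplex) for all 89 sites, with larger points for sites called in more libraries. The 3 nearly identical miR172 sites coincide at 2 and 0.997. Qrob_T0421940.2 and Qrob_T0466780.2 lie low by MFE ratio, with 79 and 87 sites above them. By Allen score, 63 and 73 sites are lower, and some sites have much higher scores.

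The strength of a call was given by its category and its p-value. In category 0 the slice position holds the highest number of reads on the transcript. A category 1 position ties for the highest, and a category 2 position exceeds the transcript's average without being the highest. Category 3 stands for several reads that do not exceed the average, and category 4 for a lone read. Only calls with p up to 0.05 are listed, so an absent site was either without reads at the slice position or above that limit. The tables hold no read counts. The depth behind a call is therefore unknown from them, and a weaker cleavage signal cannot be told apart from a lower amount of the transcript, nor fewer cells of a type from less RNA per cell.

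Qrob_T0162660.2 was called at slice position 1923 in libraries of both conditions. Under drought it was in category 0 in replicate 2 with a p-value of 0.000334, and in category 2 in replicate 3 with 0.0192, and it was not listed in replicate 1. In control it was in category 0 in replicate 1 with a p-value of 0.000991, and in category 2 in replicate 2 with 0.0424, and it was not listed in replicate 3. Each condition thus held 1 call of the strongest category, 1 of category 2 and 1 absence, and this was the miR172 site called in most libraries, 4 of 6.

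Qrob_T0402270.2, with the identical site, was listed in none of the 3 drought libraries and in all 3 control libraries. At slice position 760 it was in category 2 in control replicate 1, category 4 in replicate 2 and category 1 in replicate 3, with p-values of 0.0271, 0.0442 and 0.000492 in that order. The site separated the conditions completely, but its evidence ranged from a lone read to a shared maximum among the control replicates. Fisher's exact test (two-sided) for this site had p = 0.1, the smallest that 3 libraries against 3 allow, and an adjusted p of 1 over the 89 sites. The pattern of absence under drought and presence in every control library was shown by 2 of 89 sites (2.25%), and the opposite pattern by another 2 (2.25%). At an unadjusted p under 0.05 there were 0 sites by that test. The other site with the pattern of Qrob_T0402270.2 was slice position 894 of Qrob_T0458490.2, called for a miRNA that the study defined by its sequence.

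Qrob_T0749650.2, the site with the C1U difference, was in category 2 wherever it was listed. Its slice position 1321 had a p-value of 0.0251 in drought replicate 1, against 0.0136 in control replicate 1 and 0.0267 in control replicate 3. It was not listed in drought replicates 2 and 3 or in control replicate 2. Its category did not change, whereas that of Qrob_T0162660.2 and Qrob_T0402270.2 did. A change of category was common, with 24 of the 47 sites called in 2 or more libraries (51.1%).

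The poorly paired sites were each listed in a single library, as were 42 of all 89 sites (47.2%). Qrob_T0466780.2 was called at position 999 in drought replicate 2, in category 0 with a p-value of 0.0495, just inside the limit. Qrob_T0421940.2 was called at position 1513 in control replicate 2, in category 1 with a p-value of 0.0256. Sites listed under drought alone numbered 23 of 89 (25.8%), and in control alone 30 of 89 (33.7%). A call in a single library was thus common in either condition, and no difference between conditions is read from these sites.

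**Figure D2:**
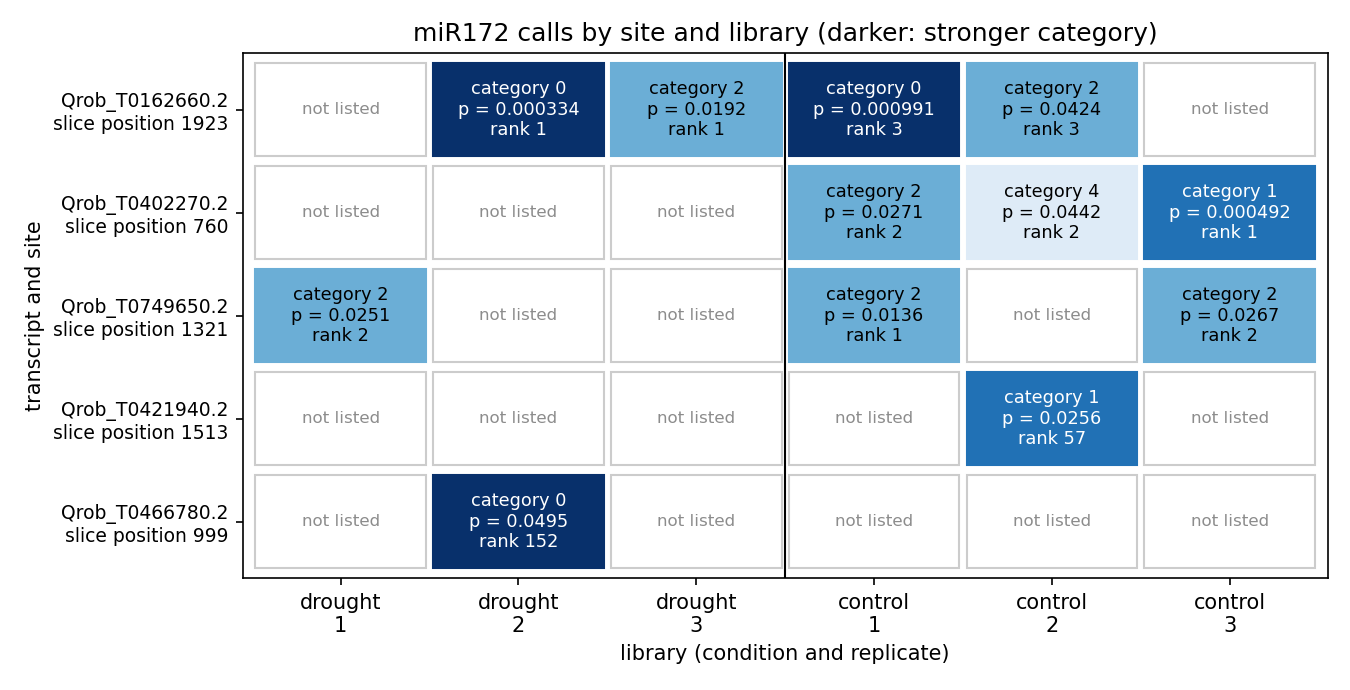
The 12 miR172 calls by site (rows) and library (columns, drought left of control), with the category, the p-value and the alignment rank of each call and darker fill for stronger categories. Qrob_T0402270.2 is listed in the 3 control libraries and in no drought library, and no site is listed in all 6 libraries.

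None of the 5 miR172 sites was called in all 6 libraries, against 16 of all 89 sites (18.0%) and 5 of the 26 sites with an Allen score of at most 2 (19.2%). The 3 nearly identical miR172 sites were called in 10 of 18 possible cases. They were listed once in each drought library, and 3, 2 and 2 times in control replicates 1, 2 and 3. A nearly perfect miR172 site was thus listed in every library of either condition, but on different transcripts. No call of another miRNA fell on any of the 5 transcripts.

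Over all 5 sites miR172 had 1, 2 and 1 sites in drought replicates 1, 2 and 3, against 3, 3 and 2 in the control replicates. The means were 1.33 ± 0.577 sites under drought and 2.67 ± 0.577 in control (SD, n = 3 each). The conditions met at 2 sites, and the difference of -1.33 did not pass an exact permutation test (two-sided, p = 0.2, adjusted p = 1 over 27 miRNA names). Fewer sites per library under drought were found for 14 of the 27 names (51.9%) and more for 8 (29.6%). Drought counts that all lay below the control counts were found for 1 name (3.70%), which was not miR172. Counts that all lay above them were found for 2 names (7.41%). With an Allen score of at most 4, which leaves the 3 nearly identical sites, the counts did not overlap, at 1 in each drought library and 2 or 3 in each control library (permutation of the 20 assignments, two-sided exact p = 0.1, the lowest that can be had). Among names with such sites this held for 1 of 16 names (6.25%), miR172 itself. When those 3 sites were counted as 1 the difference was 0.

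The number of all sites differed between libraries, so miR172 was also expressed as a share of them. It made up 3.03%, 4.88% and 2.63% of the sites in drought replicates 1, 2 and 3, and 8.11%, 6.67% and 5.41% in the control replicates. The shares did not overlap, with means of 3.51% ± 1.20 under drought and 6.73% ± 1.35 in control (SD, n = 3 each). The difference was -3.21 percentage points (permutation of the 20 assignments, two-sided exact p = 0.1, the lowest that can be had, or 0.675 after adjustment over 27 names). The shares overlapped with one common density for all libraries (exact p = 0.4), with the p-value limit of 0.01 (exact p = 0.4) and with tied alignments at the worst rank (exact p = 0.2). Shares that lay wholly below control under drought were found for 2 of 27 names (7.41%), and shares wholly above it for another 2 (7.41%). The exact 95% intervals were wide, from 0.596% to 16.5% in drought replicate 2 and from 0.661% to 18.2% in control replicate 3, and they cover only the counting error of sites.

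**Figure D3:**
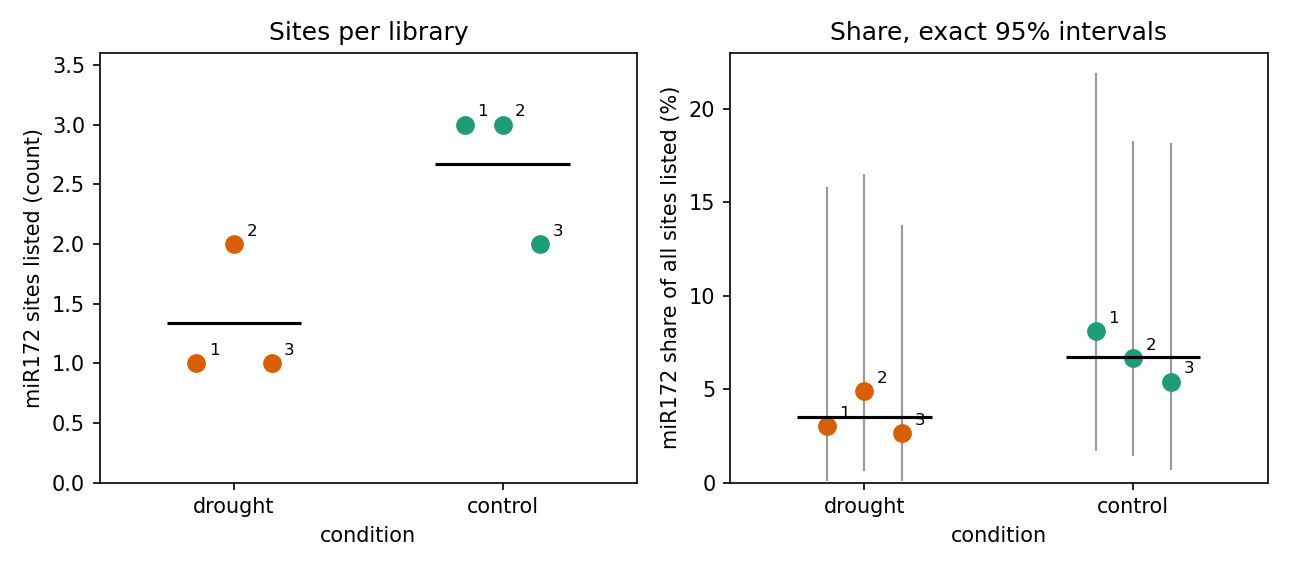
Number of miR172 sites listed per library (left) and their share of all sites listed (right, %), with drought left of control, replicate numbers beside the points, means as horizontal bars and exact 95% binomial intervals as grey lines. Drought libraries hold 1 or 2 sites and control libraries 2 or 3, and the intervals of all libraries overlap.

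The best miR172 evidence of a library overlapped between the conditions. The lowest p was 0.0251, 0.000334 and 0.0192 in drought replicates 1, 2 and 3, against 0.000991, 0.0256 and 0.000492 in the control replicates. The geometric means were 0.00545 under drought and 0.00232 in control, a difference of 0.371 on the log10 scale (permutation, two-sided exact p = 1). By category, the 4 drought calls comprised 2 of category 0 and 2 of category 2. The 8 control calls comprised 1 of category 0, 2 of category 1, 4 of category 2 and 1 of category 4.

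Whether an absence could hide a weaker call was examined from the p-values themselves. The p of a call depends on the share of transcriptome positions that fall in its category in that library, here called the density, and on the rank of the alignment among all alignments of the miRNA. Both could be recovered. The density of category 2 was 1.26%, 1.56% and 1.92% in drought replicates 1, 2 and 3 and 1.36%, 1.43% and 1.35% in the control replicates. For category 4 it was 2.87% and 3.27% in drought replicates 2 and 3, with no call to give a value in replicate 1, and 2.42%, 2.24% and 2.29% in control. The category 4 values of drought replicates 2 and 3 each rest on 1 p-value, shared by 4 calls in replicate 2 and 3 calls in replicate 3, and are the highest density that this p-value allows. They take it as the p-value of rank 1. In drought replicate 2 the alignments of 2 of these calls, for miR393 and miR166, were also called in categories 0 to 2 of other libraries, at rank 1. In drought replicate 3 this held for miR408 at rank 1 and for miR159 at rank 1 or 2. The category 2 values of drought replicate 3 and control replicate 3 rest on 2 distinct p-values each, as do the category 4 values in control. Each is the highest density that its p-values allow. The densities of categories 0 and 1 were from 0.0305% to 0.0512% in every library.

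The 3 nearly identical sites tie in both scores and held the ranks 1 to 3, and their order changed between libraries. Why it changed was not tested. Outside category 3, 22 of the 42 sites called in 2 or more libraries had more than 1 rank. Qrob_T0162660.2 was at rank 1 in drought replicates 2 and 3 and at rank 3 in control replicates 1 and 2. Its p in category 0 was therefore 2.97 times as high in control replicate 1 as in drought replicate 2, although the density was 0.0330% in control replicate 1 and 0.0334% in drought replicate 2. Qrob_T0402270.2 was at rank 2 in control replicates 1 and 2 and at rank 1 in control replicate 3. Within a library, 26 pairs of tied calls of a miRNA were found outside category 3, and 0 of them shared a rank. The p-values of these 3 sites can thus differ while category and pairing are the same. The only miR172 call of drought replicate 3, in category 2 at rank 1, would have had a p-value of 0.0566 at rank 3. With tied alignments at the worst rank, that library listed 0 miR172 sites.

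The ranks not taken by listed sites show what could have been listed, if the 3 sites are taken as the only alignments at ranks 1 to 3. Of their 8 absences, a call of category 0 or 1 would have passed the limit in all 8. A call of category 2 would have passed in 6 and at only some of the open ranks in the other 2, both in drought replicate 3, where rank 2 gives a p-value of 0.0381 and rank 3 one of 0.0566. At the densities recovered, a call of category 4 would have passed in 1, would have failed in 5, and could not be judged in the 2 absences of drought replicate 1.

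For Qrob_T0402270.2, a category 1 call like that of control replicate 3 would have been listed in any drought library. A category 2 call like that of control replicate 1 would have been listed in drought replicates 1 and 2, with p-values of at most 0.0375 and 0.0460, and in replicate 3 only at rank 2. A category 4 call like that of control replicate 2, which passed there with a p-value of 0.0442 at rank 2, would have had 0.0566 at rank 2 in drought replicate 2 and 0.0643 at rank 2 in drought replicate 3, if the category 4 densities there are as recovered. With those densities a lone read at position 760 would be over the limit in both. Without its category 4 call the site was listed in 2 of 3 control libraries and no longer separated the conditions.

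For Qrob_T0749650.2 the open rank in control replicate 2 was rank 1, where calls of categories 0, 1, 2 and 4 would have passed, category 4 with a p-value of 0.0224. For Qrob_T0162660.2 the open rank in control replicate 3 was rank 3, where category 2 would have passed with a p-value of 0.0398 and category 4 would have failed with 0.0671. An absence in control was thus not held to the same limit at the 2 sites.

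For the poorly paired sites the same reckoning assumes the rank of their single call in every library. Qrob_T0421940.2 was at rank 57, where category 0 and 1 calls would have passed in every library and category 2 calls in none. At that rank its absence from the other 5 libraries could hide a category 2 call, but not one of category 0 or 1. Qrob_T0466780.2 was at rank 152, where category 1 would have passed in no library. Category 0 at that rank would have had a p-value of 0.0525 in drought replicate 3 and 0.0513 in control replicate 2, and would have passed in the other 4 libraries, of which drought replicate 2 is the only one with a call. Ranks of a site differed by up to 4 between libraries, and the highest rank under the limit for category 0 was 167 in drought replicate 1, 153 in replicate 2 and 144 in replicate 3, against 155, 148 and 155 in the control replicates. A shift of that size could turn the outcome in control, but not in drought replicates 1 and 3. As Qrob_T0466780.2 was called once, its own shift between libraries is unknown and could be larger.

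**Figure D4:**
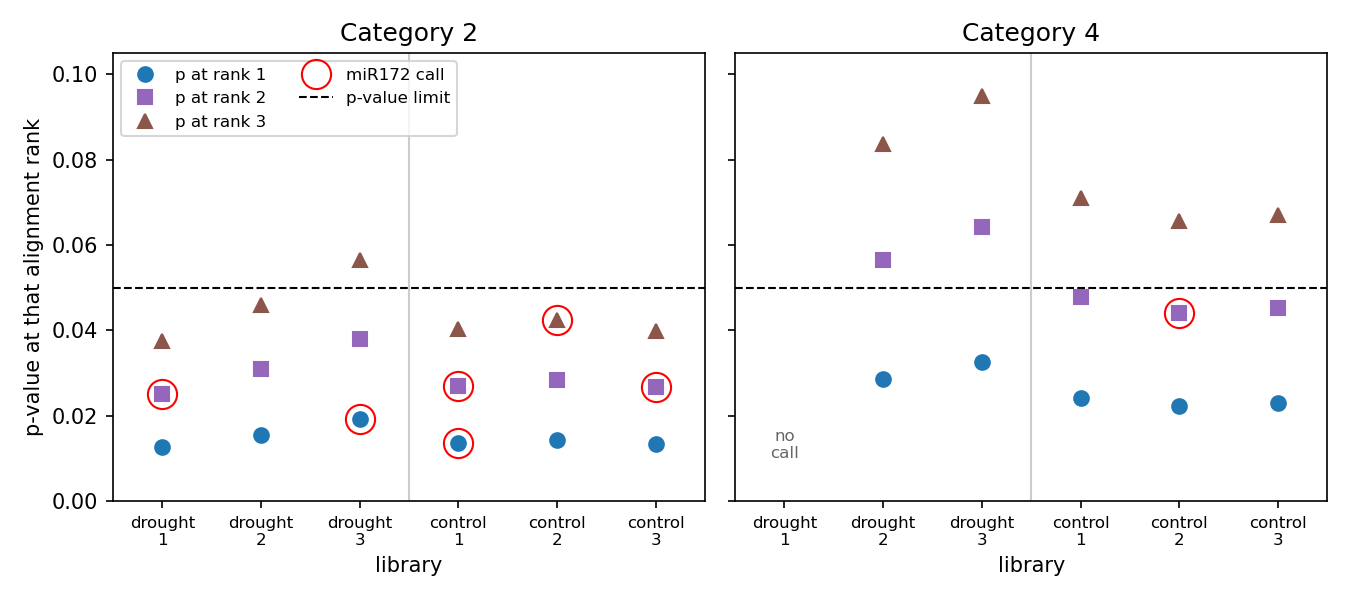
The p-value that a category 2 (left) or category 4 (right) call would have at alignment ranks 1, 2 and 3 in each library, with drought left of control, the limit of 0.05 as a dashed line and miR172 calls circled. At the densities recovered, a category 4 call at rank 2 lies below the limit in the 3 control libraries and above it in drought replicates 2 and 3, and a category 2 call at rank 3 lies above it in drought replicate 3 alone.

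The CleaveLand4 run that made the tables of drought replicates 2 and 3 was dated later than the runs for drought replicate 1 and the 3 control libraries. The later date holds drought libraries only, so it cannot be told apart from the condition there. Drought replicates 2 and 3 were also the only libraries with Qrob_T0162660.2 at rank 1. They had the highest densities recovered for categories 2 and 4. In drought replicate 1, of the earlier date, the category 2 density was 1.26%, below every control value. A link of these ranks and densities to the run date was not tested. Among the libraries of the earlier date, drought replicate 1 had 1 miR172 site and the control replicates 3, 3 and 2 (difference -1.67). Qrob_T0402270.2 was likewise absent from drought replicate 1 and present in the 3 control libraries. The other 2 nearly identical sites changed, by the share of libraries with a call, drought minus control. For Qrob_T0162660.2 it was -0.667 at the earlier date and 0 over all libraries. For Qrob_T0749650.2 it was 0.333 at the earlier date and -0.333 over all libraries. The earlier date holds 1 drought library only.

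miR156 and miR157, which direct the slicing of SPL transcription factor transcripts and precede miR172 in the age pathway of Arabidopsis, were looked at beside it. miR156 had 2, 4 and 4 sites in drought replicates 1, 2 and 3 and 3, 2 and 2 in the control replicates (permutation, two-sided exact p = 0.4, or 1 after adjustment), and miR157 had 1 site in every library.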

How the data were processed

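Degradome libraries of pooled taproot and lateral root tips were sequenced by the authors as single-end reads of 50 nt. Slicing calls came from CleaveLand4 4.5, run by the authors with the longest PM1N transcripts, categories up to 4 and a p-value limit of 0.05, per the file headers. The labels also list cutadapt, FastQC, HISAT2 and Bowtie, without a role. The deposited columns used were the p-value, which is not corrected for multiple searches, the category and Allen score, the MFE ratio (a fraction), the duplex energy, the positions and the paired sequences. Depth is unknown from the tables.

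A p-value is 1 minus the chance of no match in n ranked alignments at density f. The density f was taken per library and category as the largest step of −ln(1 − p) that divides all values (tolerance 0.001 per unit of divisor), and the rank n followed. All 10 calls of the tied miR172 sites lay at ranks 1 to 3. Over all calls, 133 pairs outside category 3 were ranked by MFE ratio and 0 against it. Category 3 densities rest on few calls and were not used for statements. The step search was tested on simulated data that held rank 1 or several ranks without a common divisor. Sets with few distinct p-values and no rank 1 were not simulated.

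Libraries were grouped by their titles. Values were compared by exact permutation tests over 20 assignments and sites by Fisher's exact test, with Benjamini-Hochberg adjustment over all names or sites. All miR172 sites are named, besides miR156 and miR157 and, where 2 or fewer, sites with the same presence pattern. The members and lists were chosen with earlier results of these data known. Alternatives were categories 0 to 2, a p-value limit of 0.01, an Allen score of at most 4, a common density (category 3 kept as deposited), tied sites at the worst rank, merged sites, miRBase families alone, a replicate block and leaving out each library. The run date was added after seeing the data. Scripts ran under Python 3.11.15 with scipy 1.17.1, pandas 2.3.3, numpy 2.4.6 and matplotlib 3.10.9.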

Additional observations from a re-analysis of the deposited data

How the results depend on the processing

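The lower number and share of miR172 sites under drought kept their direction without each library in turn, from -1.67 to -1.17 sites and from -3.90 to -2.52 percentage points. Leaving out a library could not have reversed either direction, as no drought value exceeded a control value. With all libraries the share differed by -5.01 points for Allen scores up to 4, -3.02 with one common density, -2.35 with the p-value limit of 0.01 and -3.38 with tied alignments at the worst rank, with overlap in the last 3. The difference in sites became 0 when sites with equal scores were merged, -0.667 with identical sequences merged and -0.333 with the p-value limit of 0.01. The count of miR172 sites that separate the conditions, 1 as reported, was 0 with the limit of 0.01, categories 0 to 2, a common density, tied alignments at the worst rank or identical sequences merged. It remained 1 without each library in turn, and could not have fallen, as a site that separates all libraries also separates fewer. For the lowest p the log10 difference was -0.32 with the limit of 0.01, where only drought replicate 2 and control replicates 1 and 3 kept a call. Leaving out control replicate 3 gave its lowest value, 0.0338, and leaving out drought replicate 2 its highest, 0.977. For Qrob_T0749650.2 the share of libraries with a call was 0.333 lower under drought over all libraries and 0.333 higher among those of the earlier run date. Causes of these changes were not tested. The replicate block, as pairs of equal number, left the differences at -1.33 sites, -3.21 percentage points, 0.371 and 1 site, with exact p of 0.25 at the lowest, the smallest it allows. Deviations of same-numbered libraries correlated at -0.106, -0.0456 and -0.141 over sites, which does not settle whether the numbers pair the samples. No alternative could pass 0.05 with 3 libraries against 3, so these tests say nothing of stability.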

Other observations

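The other site that shared the presence pattern of Qrob_T0162660.2, listed in drought replicates 2 and 3 and control replicates 1 and 2, was slice position 938 of Qrob_T0519660.2, called for a study-defined miRNA. No other site had the pattern of Qrob_T0749650.2. The pattern of Qrob_T0421940.2, a call in control replicate 2 alone, was shared by 11 other sites, and that of Qrob_T0466780.2, a call in drought replicate 2 alone, by 6.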
